A study of Kluyveromyces lactis with 6 samples.

Results

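The comparison set the 2 RNA-seq libraries of one sir2 deletion isolate of the budding yeast Kluyveromyces lactis (isolate 2, strain LRY2850) against the 2 libraries of another (isolate 1, strain LRY2849). These are 4 of the 6 libraries of the study, and the 2 libraries of the undeleted strain (WT, LRY2835) entered only as a reference level. All 3 strains are MATa and lack both silent mating-type loci (hmr_delta hml_delta), and both isolates carry the genotype label sir2_delta where LRY2835 carries SIR2. Every strain was grown at 30 °C in YPD, a rich medium with 2% glucose, to early log phase. All 5076 annotated genes were compared, and 5021 of them, those whose strain means averaged 1 FPKM or more, were tested. FPKM is fragments mapped per kilobase of transcript, scaled to the size of the library, and differences are isolate 2 minus isolate 1 in log2(FPKM + 1) unless another scale is named.

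Sir2 is a histone deacetylase that uses NAD+ as a cosubstrate and keeps chromatin silent at, for example, chromosome ends and mating-type loci. A deletion made in one background is often kept as several independently isolated strains, because a strain can pick up further changes while it is built or grown. Comparing such isolates shows which transcripts take the same level in both.

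The study describes the isolates as biological and the libraries of one strain as technical replicates. Each isolate, and WT, is therefore a single culture as far as the labels say, and every p-value here measures technical spread. A difference between the strains, between their cultures and between their RNA preparations cannot be told apart. The gene KLLA0F14663g, SIR2, gave 66.9 and 64.9 FPKM in the WT libraries. Isolate 1 gave 0.0916 and 0.0845, and isolate 2 gave 0.108 and 0.0503. It was near 0 in all 4 deletion libraries, as their genotype label says.

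The isolates resembled each other far more than either resembled WT. Across the tested genes, Pearson's r in log2(FPKM + 1) was 0.9897 to 0.9931 between a library of isolate 1 and one of isolate 2, and 0.8865 to 0.9051 between an isolate library and a WT library. Within a strain, r was 0.9958 for isolate 1, 0.9969 for isolate 2 and 0.9986 for WT. The SD over genes of the difference between libraries was 0.18 within isolate 1, 0.174 within isolate 2, and 0.243 to 0.317 between isolates. The largest of these was between isolate 1 replicate 1 and isolate 2 replicate 2. The median absolute difference between the isolates was 0.136, against median absolute changes from WT of 0.376 in isolate 1 and 0.428 in isolate 2.

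Of the 5021 tested genes, 766 (15.3%) differed between the isolates at an adjusted p under 0.05 (limma, Benjamini-Hochberg). Isolate 2 was higher at 302 of them (6.01%) and lower at 464 (9.24%). The differences were small. Those of 4739 genes (94.4%) were under 0.5, 1 called gene (0.0199%) was at least 2-fold higher and 8 (0.159%) were at least 2-fold lower. The whole range ran from -1.32 to 1.05, and no gene was at 0 in both libraries of one isolate and at 1 FPKM or more in the other. The isolates' libraries did not overlap at 757 of the 766 called genes. Over all tested genes, isolate 2 was above isolate 1 in every library at 1381 (27.5%) and below at 1308 (26.1%). The counts depended on which library was left out, and stayed closest to the full fit without isolate 1 replicate 2. Such a fit has 1 residual degree of freedom, against 2 with all libraries. Without isolate 1 replicate 1 the calls were 91 higher and 216 lower, and without isolate 2 replicate 2 they were 68 higher and 196 lower. Without isolate 2 replicate 1 they were 168 higher and 285 lower. Calls that passed in all 4 fits with 1 library left out numbered 168, of which 48 were higher and 120 lower.

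The difference also followed the level of expression. With the tested genes split by level into 8 bins, the median difference ran from -0.204 in the lowest bin, with 13 called higher and 162 lower, to 0.10 in the highest, with 87 higher and 5 lower. The technical pair of isolate 2 (replicate 2 minus replicate 1) moved along the same axis, from -0.117 to 0.118, while that of isolate 1 moved from -0.0176 to 0.0489. The calls were also counted after the trend was taken out. After cyclic loess 629 genes were called, and 503 of the 766 calls were shared. After removal of a trend in level and coding length 593 were called, and 459 were shared. The prior degrees of freedom of the fit also changed, from infinite to 30.74 and 13.12. These counts therefore do not measure the part of the trend alone. Medians and counts under these 2 settings are given beside the main gene groups.

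**Figure D1:**
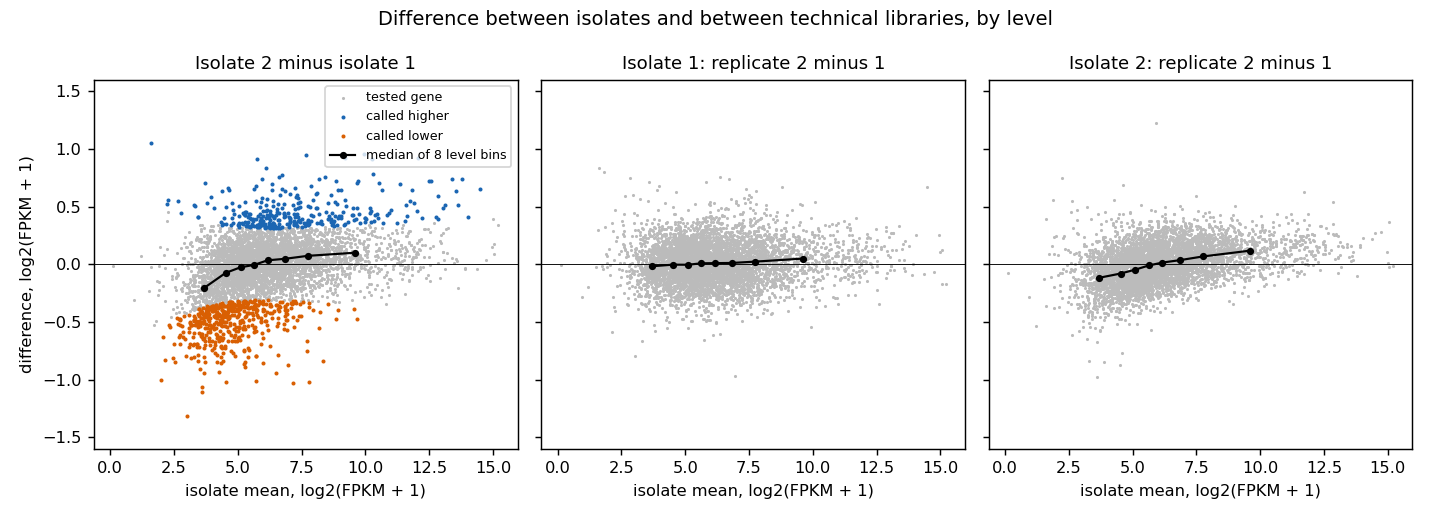
Difference in log2(FPKM + 1) on the y axis against the mean of the isolates on the x axis for 5021 tested genes, between isolates (left) and within the technical pair of isolate 1 (middle) and of isolate 2 (right), with the median of each of 8 level bins as a line. The line rises from -0.204 to 0.10 between isolates and from -0.117 to 0.118 within the pair of isolate 2, and stays within -0.0176 and 0.0489 within the pair of isolate 1.

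The galactose genes gave some of the largest differences in favour of isolate 2. GAL1 encodes galactokinase, which in K. lactis also relieves the inhibitor Gal80. Its level was 164 and 147 FPKM in WT, 647 and 786 in isolate 1, and 1337 and 1429.7 in isolate 2. GAL10, the epimerase of the same pathway, was at 85 and 70.9 in WT, 361 and 499 in isolate 1, and 732 and 883 in isolate 2. In both genes the strains were ordered WT, isolate 1, isolate 2 with no overlap. The differences were 0.95 (SE 0.129, adjusted p = 5.98e-11, limma) for GAL1 and 0.92 (SE 0.126, adjusted p = 9.96e-11, limma) for GAL10, so isolate 2 lay further from WT.

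GAL7 and GAL80 differed between the isolates without following that order. GAL80 encodes the protein that holds the activator Gal4 inactive. It was at 41.1 and 40.0 FPKM in WT, 38.4 and 38.9 in isolate 1, and 76.8 and 71.0 in isolate 2. Isolate 1 stood just under WT and isolate 2 well above both, a difference of 0.92 (SE 0.116, adjusted p = 2.4e-12, limma). GAL7, the uridylyltransferase, was at 196 and 182 in WT, 172 and 194 in isolate 1, and 279 and 309 in isolate 2. Isolate 1 overlapped WT here and isolate 2 lay above both, with a difference of 0.68 (SE 0.122, adjusted p = 1.92e-06, limma).

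Of the 9 tested members of a galactose and lactose list, 5 were called higher (against 6.01% of all tested genes) and none lower, with a median of 0.454 against 0.00603 over all tested genes. MIG1, a glucose repressor in S. cerevisiae, was the remaining one, at 77.1 and 78.7 FPKM in isolate 1 and 94.9 and 121 in isolate 2. Its difference of 0.45 had an adjusted p of 0.00201 (limma), and 0.276 without isolate 2 replicate 2. The activator gene GAL4 itself overlapped between the isolates, at 44.4 and 54.3 in isolate 1 and 49.8 and 57.8 in isolate 2. Its difference of 0.12 had a 95% interval of -0.103 to 0.352. GAL1, GAL10, GAL7 and GAL80 were called in all 4 fits that left 1 library out and under every other setting tried, and the list's median was 0.414 after cyclic loess and 0.375 after removal of the level and length trend.

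Glycolytic genes were higher in isolate 2 as well, and there isolate 2 lay nearer to WT. PGK1, phosphoglycerate kinase, was at 16092 and 15742 FPKM in WT, 9061 and 10217 in isolate 1, and 14826 and 15124 in isolate 2. PFK2, a phosphofructokinase subunit, was at 1767 and 1787 in WT, 1140.2 and 1439 in isolate 1, and 1983 and 2024 in isolate 2. ADH3, a mitochondrial alcohol dehydrogenase of K. lactis, was at 633 and 557 in WT, 45.2 and 55.6 in isolate 1, and 89.6 and 91.2 in isolate 2. All 3 were lower in isolate 1 than in WT in every library, and isolate 2 was close under WT at PGK1, above WT at PFK2 and far below WT at ADH3. The differences were 0.64 (SE 0.142, adjusted p = 0.000193, limma), 0.64 (SE 0.131, adjusted p = 3.48e-05, limma) and 0.84 (SE 0.116, adjusted p = 1.73e-10, limma).

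Of 13 tested members of the glycolysis and ethanol list, 9 (69.2%, against 6.01% of all tested genes) were called higher and none lower. The median was 0.406. PGI1 (0.51), PFK1 (0.43), GPM1 (0.41), FBA1 (0.41), TPI1 (0.39) and GCR1, the activator of glycolytic genes in S. cerevisiae (0.31), make up the rest. The lowest members were TYE7, another such activator in S. cerevisiae, at -0.28 (adjusted p = 0.129, limma) with overlapping libraries, and GCR2 at 0.11. WT lay above both isolates at 9 of the 13 and between them at 4. These are highly expressed genes, where the level trend favours isolate 2. The median fell to 0.256 after cyclic loess, with 5 called higher and 1 lower. After removal of the level and length trend it was 0.219, with 4 called higher and none lower. Leaving out isolate 1 replicate 1 reduced the count called higher to 1. It was 6 when the other library of isolate 1 was left out, and 7 and 3 when replicates 1 and 2 of isolate 2 were. ADH3 alone was called in all 4 of those fits. Without isolate 1 replicate 1 the adjusted p was 0.102 for PGK1 and 0.0599 for PFK2 (limma).

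**Figure D2:**
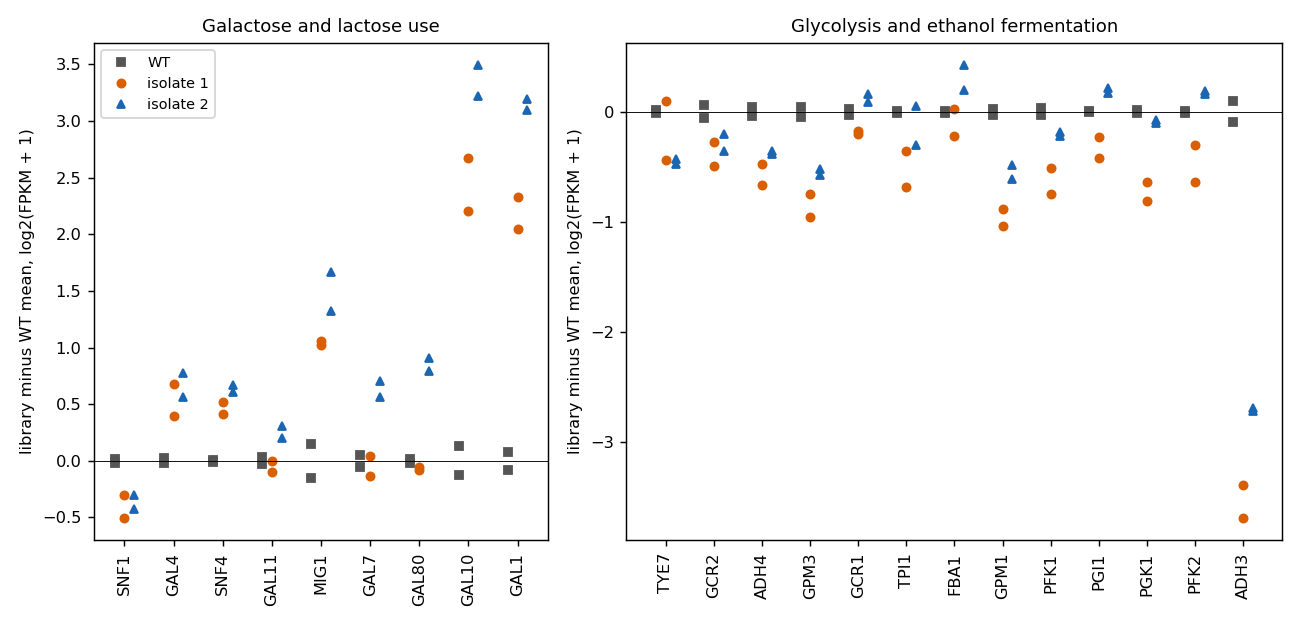
Each library minus the mean of the WT libraries in log2(FPKM + 1) (y axis) for the 9 tested galactose and lactose genes and the 13 tested glycolysis and ethanol genes (x axis), with squares for WT, circles for isolate 1 and triangles for isolate 2. Both isolate 2 libraries stand above both isolate 1 libraries at GAL1, GAL10, GAL80 and GAL7, and at ADH3 all 4 deletion libraries stand far under WT.

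Ribosome assembly gave the broadest difference, in the opposite direction. Of 143 tested genes for ribosome assembly and rRNA processing, 73 (51.0%) were called lower in isolate 2 and none higher, against 9.24% of all tested genes called lower. The median difference was -0.356. WT was above both isolates at all 143, and the median change from WT was -0.974 and -0.906 in the 2 libraries of isolate 1 and -1.32 and -1.29 in those of isolate 2. The isolates shared the direction, and isolate 2 was further along it. The median stayed at -0.28 after cyclic loess and -0.277 after removal of the level and length trend, with 60 and 53 called lower. The calls numbered 39 without isolate 2 replicate 2, 44 without isolate 2 replicate 1 or isolate 1 replicate 2, and 52 without isolate 1 replicate 1, and 28 of the 73 genes passed in all 4 such fits.

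The lowest members of the list, BUD22 and IMP3, lay far beyond its median of -0.356. BUD22, needed for small-subunit rRNA maturation in S. cerevisiae, was at 36.3 and 39.6 FPKM in WT, 16.2 and 17.5 in isolate 1, and 8.98 and 7.64 in isolate 2. IMP3, a component of the small-subunit processome in S. cerevisiae, was at 104 and 106 in WT, 56.3 and 47.3 in isolate 1, and 26.5 and 30.3 in isolate 2. In both genes the order was WT, isolate 1, isolate 2 with no overlap, and the isolates differed by -0.94 (SE 0.139, adjusted p = 2.61e-09, limma) and -0.84 (SE 0.117, adjusted p = 1.73e-10, limma). The highest members were TIF6, a large-subunit assembly factor in S. cerevisiae, at 0.22 (adjusted p = 0.253, limma), and NOP1, the rRNA methyltransferase fibrillarin, at 0.27 (adjusted p = 0.132, limma). Outside the list, POP3, an RNase P and MRP subunit in S. cerevisiae, differed by -0.89, and MPP6, an exosome cofactor there, by -0.86.

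The polymerases that make ribosomal and transfer RNA followed. Of 34 tested subunits and factors of RNA polymerases I and III, 9 (26.5%, against 9.24% of all tested genes) were called lower and none higher, with a median of -0.177 that was -0.157 after cyclic loess and -0.111 after removal of the level and length trend. RRN5, part of an upstream activating factor for polymerase I in S. cerevisiae, was at 5.0 and 4.7 FPKM in WT, 4.41 and 4.94 in isolate 1, and 1.59 and 2.08 in isolate 2, so isolate 1 overlapped WT and isolate 2 did not. Its difference was -1.0 (SE 0.20, adjusted p = 2.29e-05, limma), and -0.63 after cyclic loess. RPA34, a polymerase I subunit, was at 159 and 167 in WT, 102 and 93.7 in isolate 1, and 57.5 and 61.6 in isolate 2, a difference of -0.71. RPC31, a polymerase III subunit, differed by -0.62.

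Genes of the ribosomal proteins themselves gave few calls. Of 57 tested, 4 (7.02%, near the 6.01% of all tested genes) were called higher and 1 (1.75%, against 9.24%) lower. The median of 0.0991 turned to -0.0471 after cyclic loess and -0.109 after removal of the level and length trend. None was called higher without isolate 1 replicate 1 or without isolate 2 replicate 2. The 1 called lower, RPP1 (-0.33, adjusted p = 0.813 without isolate 1 replicate 1, limma), bears the symbol of an RNase P subunit of S. cerevisiae. No cytosolic aminoacyl-tRNA synthetase was called among 19, and no proteasome subunit among 35. Their medians were 0.0978 and 0.101. At the proteasome 34 of 35 differences were above 0, and the median was 0.0367 after cyclic loess.

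**Figure D3:**
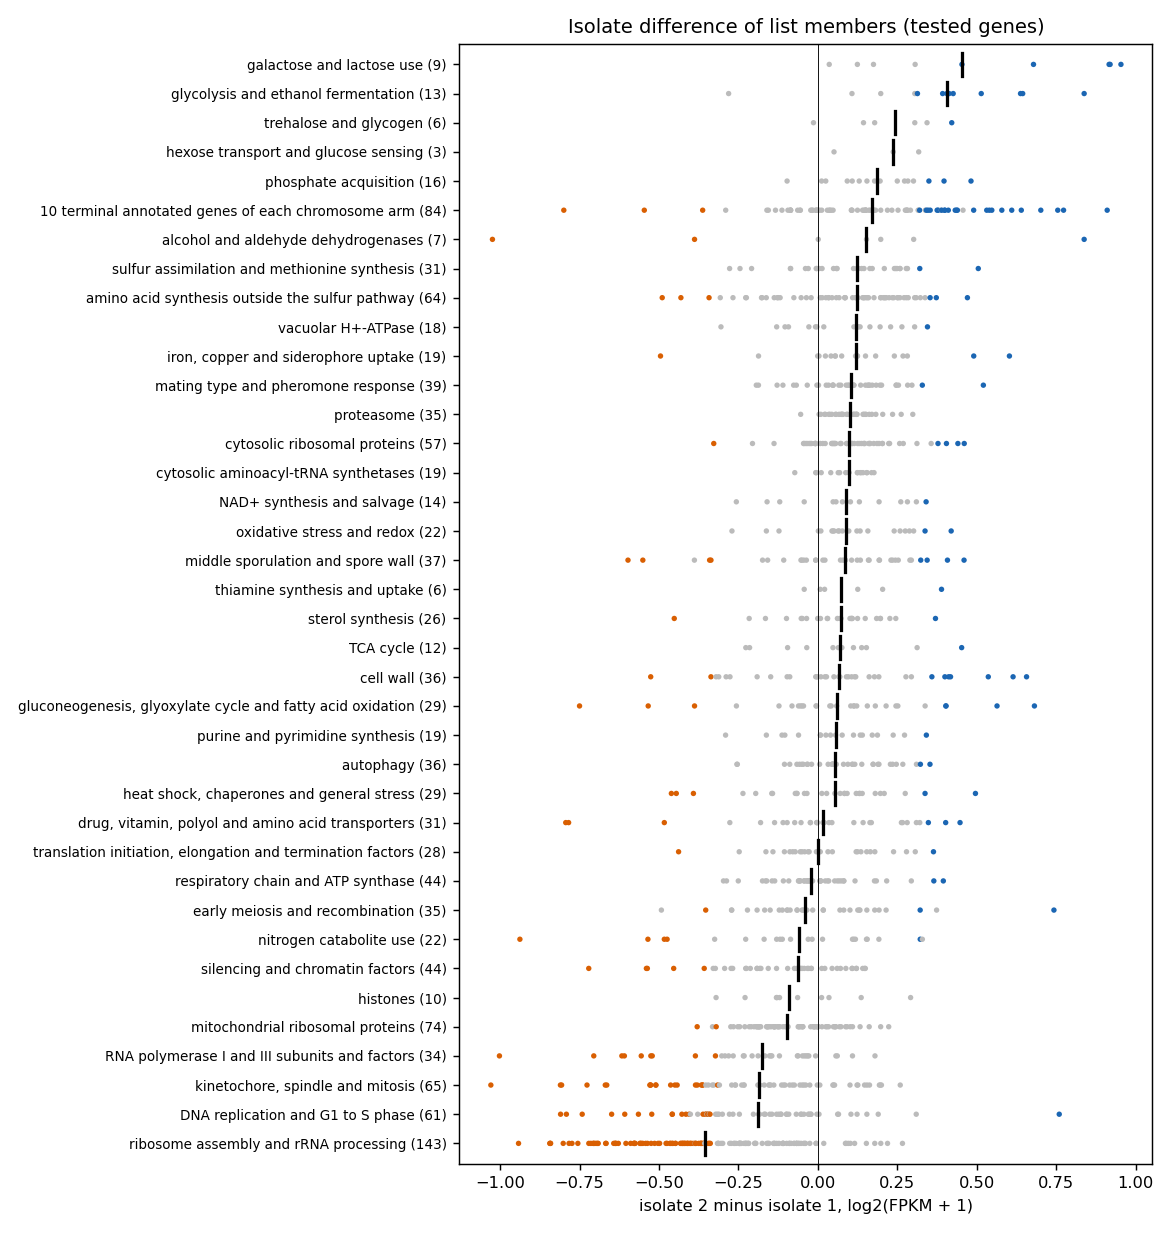
Isolate difference in log2(FPKM + 1) on the x axis for the tested members of 38 gene lists (rows, with the number tested), as points, grey where not called, blue where called higher and orange where called lower in isolate 2; black bars are list medians. The medians run from -0.356 for ribosome assembly to 0.454 for galactose and lactose use.

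Genes of DNA replication and of entry into S phase were lower in isolate 2. Of 61 tested, 18 (29.5%, against 9.24% of all tested genes) were called lower and 1 (1.64%, against 6.01%) higher. The median difference was -0.187. The median level of the list, 4.69 in log2(FPKM + 1), lay in a level bin where 103 of 628 genes were called lower. CDC6, which loads the replicative helicase, was at 54.3 and 55.9 FPKM in WT, 40.6 and 36.6 in isolate 1, and 22.4 and 21.3 in isolate 2. PCL1, a G1 cyclin in S. cerevisiae, was at 157 and 156 in WT, 58.8 and 51.9 in isolate 1, and 35.6 and 29.9 in isolate 2. Both genes stepped down from WT to isolate 1 to isolate 2, with isolate differences of -0.79 (SE 0.12, adjusted p = 6.72e-09, limma) and -0.74 (SE 0.117, adjusted p = 2.86e-08, limma). SWI4, which in S. cerevisiae activates G1 transcription, differed by -0.65 and the helicase subunit MCM2 by -0.61. The MCM2 call had adjusted p-values of 0.0662 without isolate 1 replicate 1 and 0.0587 without isolate 2 replicate 2 (limma). The checkpoint gene MRC1, outside the list, was at 17.9 and 18.3 in WT, 15.3 and 13.9 in isolate 1, and 7.73 and 6.86 in isolate 2, a difference of -0.91.

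The exception was CLN3, the cyclin that acts upstream of those genes in S. cerevisiae. It was at 556 and 577 FPKM in WT, 244 and 274 in isolate 1, and 418 and 461 in isolate 2. All 4 deletion libraries were under WT and isolate 2 was nearer to it, with a difference of 0.76 (SE 0.124, adjusted p = 9.05e-08, limma). The median of the replication list was -0.134 after cyclic loess and -0.138 after removal of the level and length trend. In that list 12 genes were called lower under both trend-removing settings and without isolate 1 replicate 2. The count was 9 without isolate 1 replicate 1 or isolate 2 replicate 1, and 10 without isolate 2 replicate 2.

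Kinetochore, spindle and mitosis genes were partly lower as well. Of 65 tested, 20 (30.8%, against 9.24% of all tested genes) were called lower and none higher, with a median of -0.185. The median level of the list, 4.23 in log2(FPKM + 1), lay in a level bin where 103 of 628 genes were called lower. DAD4, a kinetochore subunit of the DASH complex in S. cerevisiae with a coding length of 219 nt, was at 252 and 260.1 FPKM in WT, 229.5 and 180.0 in isolate 1, and 98.2 and 100.03 in isolate 2. SMC1, a cohesin subunit, was at 9.26 and 8.65 in WT, 11.7 and 10.5 in isolate 1, and 5.87 and 5.86 in isolate 2. At SMC1 the isolates lay on opposite sides of WT in every library. Their differences were -1.03 (SE 0.12, adjusted p = 2.16e-14, limma) and -0.81 (SE 0.153, adjusted p = 6.37e-06, limma), and MCD1, another cohesin subunit, differed by -0.73. This list depended on the level trend. Its median was -0.0753 after cyclic loess and -0.0868 after removal of the level and length trend, each with 8 called lower and 2 higher, and 5 were called lower without isolate 1 replicate 1. Counts were 10 without either library of isolate 2 and 16 without isolate 1 replicate 2. DAD4 kept a difference of -1.09 after cyclic loess.

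Cell wall genes were mixed. Of 36 tested, 7 (19.4%, against 6.01% of all tested genes) were called higher and 2 (5.56%, against 9.24%) lower. The median was 0.0676, which was 0.0346 after cyclic loess and -0.00494 after removal of the level and length trend. CTS1, the chitinase that separates daughter from mother in S. cerevisiae, was at 173 and 170.0 FPKM in WT, 209 and 232 in isolate 1, and 346 and 328 in isolate 2. EGT2, also a separation gene there, was at 399.6 and 412 in WT, 349 and 397 in isolate 1, and 534 and 546 in isolate 2. Isolate 2 was above isolate 1 and WT at both, by 0.61 (SE 0.123, adjusted p = 2.28e-05, limma) and 0.54 (SE 0.125, adjusted p = 0.000422, limma) over isolate 1. The separation genes DSE1, DSE2 and DSE4 differed by 0.42, 0.40 and 0.41, with adjusted p-values of 0.264, 0.18 and 0.106 without isolate 2 replicate 2 (limma). CCW12, a wall mannoprotein, differed by 0.66 (adjusted p = 0.00018, and 0.535 without isolate 1 replicate 1, limma). The lower members were KRE9 (-0.53, adjusted p = 0.0636 without isolate 2 replicate 1, limma) and the chitin synthase CHS3 (-0.34, adjusted p = 0.452 without isolate 2 replicate 2, limma). The higher count was 2 without isolate 1 replicate 1 and without isolate 2 replicate 2, and 4 without isolate 2 replicate 1.

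Genes for carbon sources other than glucose gave calls in both directions. MDH2, which in S. cerevisiae is the cytosolic malate dehydrogenase of gluconeogenesis, was at 137 and 156 FPKM in WT, 294 and 244 in isolate 1, and 153 and 165 in isolate 2. CRC1, the mitochondrial carnitine carrier in S. cerevisiae, was at 13.2 and 11.6 in WT, 40.9 and 40.3 in isolate 1, and 58.7 and 73.6 in isolate 2. Both were above WT in isolate 1, and isolate 2 was back near WT at MDH2 but further above it at CRC1, by -0.75 (SE 0.121, adjusted p = 7.54e-08, limma) and 0.68 (SE 0.116, adjusted p = 4.28e-07, limma). In the list of 29 genes for gluconeogenesis, glyoxylate cycle and fatty acid oxidation, 4 (13.8%) were called higher and 3 (10.3%) lower. Over all tested genes these shares were 6.01% and 9.24%, so the lower share lay near that of all genes. The median of the list was 0.0592. It was 0.0974 after cyclic loess, with 6 called higher and 3 lower. After removal of the level and length trend it was 0.0874, with 5 higher and 3 lower. The higher count was 2 without isolate 1 replicate 1 and 1 without isolate 2 replicate 2. Among aldehyde dehydrogenase genes, ALD5 was at 379 and 517 in WT, 249 and 388 in isolate 1, and 146 and 159 in isolate 2, a difference of -1.02 (SE 0.121, adjusted p = 6.72e-14, limma). Its isolate 1 libraries stood wide apart and overlapped WT, a spread that the SE does not follow. The difference ran from -1.34 to -0.706 with 1 library left out. ALD4, far above WT in both isolates, differed by -0.39 with an adjusted p of 0.021 that ran from 0.054 to 0.241 with 1 library left out (limma).

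Of the 417 genes at least 2-fold above WT in both isolates, 61 (14.6%, against 6.01% of all tested genes) were called higher in isolate 2. Another 16 (3.84%, against 9.24%) were called lower, and 340 were not called. IME1, NPT1 and AGA2 are examples of those not called. IME1, the inducer of meiosis in S. cerevisiae, was at 3.28 and 1.85 FPKM in WT, 42.3 and 42.1 in isolate 1, and 45.6 and 37.1 in isolate 2. NPT1, an enzyme of NAD+ salvage in S. cerevisiae, was at 102 and 109 in WT, 877 and 884 in isolate 1, and 899 and 933 in isolate 2. AGA2, an agglutinin subunit in S. cerevisiae, was at 2.2 and 3.78 in WT, 182 and 185 in isolate 1, and 214 and 222 in isolate 2. At IME1 the isolates overlapped, and at the other two isolate 2 was slightly higher in both libraries. The 95% intervals of the difference were -0.263 to 0.194 for IME1, -0.194 to 0.309 for NPT1 and 0.00889 to 0.484 for AGA2, and none was called over all tested genes (adjusted p of 0.891, 0.825 and 0.168, limma). The sporulation regulator NDT80 was the highest of the middle sporulation list at 0.46 (adjusted p = 0.00145, and 0.158 without isolate 1 replicate 1, limma). In the early meiosis list 2 of 35 genes were called higher (5.71%) and 1 lower (2.86%). Middle sporulation had 4 of 37 called in each direction (10.8%). Mating had 2 of 39 called higher (5.13%) and NAD+ synthesis 1 of 14 (7.14%), with none lower in either. Over all tested genes the shares were 6.01% higher and 9.24% lower. Early meiosis depended on the level trend, with 6 called higher and none lower after cyclic loess and 5 and none after removal of the level and length trend, and its median turned from -0.0394 to 0.0816 and 0.0782. Of the calls in the 4 lists RIM101, which also stands in the early meiosis list, was the 1 that passed in all 4 fits with 1 library left out.

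Among transporters of drugs, vitamins, polyols and amino acids, 3 of 31 were called higher and 3 lower (9.68% each, near the 6.01% and 9.24% of all tested genes), with a median of 0.0162 that was 0.081 after cyclic loess and 0.0392 after removal of the level and length trend. FUI1, the uridine permease of S. cerevisiae, was at 60 and 61.8 FPKM in WT, 68.4 and 67.8 in isolate 1, and 40.9 and 36.9 in isolate 2. DIP5, a dicarboxylic amino acid permease there, was at 58.5 and 62.2 in WT, 106 and 149 in isolate 1, and 72.1 and 73.1 in isolate 2. Isolate 1 was above WT at both, and isolate 2 was under WT at FUI1 and above it at DIP5. The differences were -0.79 (SE 0.116, adjusted p = 2.01e-09, limma) and -0.78 (SE 0.118, adjusted p = 4.9e-09, limma). ATO3, an ammonium transporter in S. cerevisiae that is outside this list, differed by -0.84. It stepped down from 689 and 705 in WT to 423 and 449 in isolate 1 and 232 and 256 in isolate 2. MET17, which makes homocysteine in sulfur assimilation, went the other way, by 0.51 (adjusted p = 0.000398, limma). Its sulfur list had 2 of 31 called higher (6.45%, near the 6.01% of all tested genes) and none lower.

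Silencing and chromatin factors were called lower at 5 of 44 (11.4%, near the 9.24% of all tested genes) and higher at none, with a median of -0.0631. The 5 were FOB1 (-0.72), HST4 (-0.54), HST2 (-0.54), RIF1 (-0.45) and HST3 (-0.36), of which the HST genes encode relatives of Sir2. Without isolate 1 replicate 1, or without isolate 2 replicate 2, none was called. SUM1 and RFM1, whose products are partners of Sir2 in yeast silencing complexes, differed by -0.18 and 0.04, with 95% intervals of -0.408 to 0.0501 and -0.184 to 0.274.

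Genes at the chromosome ends were more often higher in isolate 2. The 10 outermost annotated genes per arm, over 12 arms, make 120, of which 84 were tested. They included 24 called higher (28.6%, against 6.01% of all) and 3 lower (3.57%, against 9.24%), with a median of 0.169. The arms were uneven. On right arms, 5 of 10 tested genes were called higher on E, 4 of 10 on C and 0 of 10 on F. WT was under both isolates at 63 of the 84, and the median change from WT was 0.521 and 0.614 in isolate 1 and 0.718 and 0.871 in isolate 2. After cyclic loess the count called higher was 24. Without isolate 1 replicate 1 or isolate 2 replicate 2 the count was 10, without isolate 2 replicate 1 it was 12, and 7 of the 27 called genes passed in all 4 fits with 1 library left out. KLLA0B14839g had the largest difference, at 334 and 257 FPKM in WT, 810.2 and 988 in isolate 1, and 1679 and 1687 in isolate 2. It rose above WT in all 4 deletion libraries, and isolate 2 exceeded isolate 1 by 0.91 (SE 0.13, adjusted p = 6.37e-10, limma). The largest in the other direction was KLLA0A11913g at -0.80, with an adjusted p of 0.146 without isolate 1 replicate 2 (limma).

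The longest run of neighbouring called genes was at the right end of chromosome E, where 5 consecutive genes from KLLA0E24861g to KLLA0E24949g were higher in isolate 2 with a median of 0.532. KLLA0E24905g, in the middle of it, was at 348 and 462 FPKM in WT, 1112 and 1183 in isolate 1, and 1644 and 2119 in isolate 2. It differed by 0.70 (SE 0.131, adjusted p = 5.03e-06, limma) and is the 1 member of the run called in all 4 fits with 1 library left out. The outer member KLLA0E24949g, at 0.32, was called in none of them. No run of genes called lower was longer than 3, and there were 11 of that length.

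No chromosome stood apart as a whole. The chromosome medians ran from -0.00789 on F to 0.0321 on A. Medians over windows of 25 neighbouring genes ran from -0.188 to 0.162 between isolates, and from -0.125 to 0.172 within the technical pairs.

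Called genes without a symbol numbered 190 and supplied several of the largest differences. KLLA0D13310g was at 6678 and 6319 FPKM in WT, 2939.6 and 3362 in isolate 1, and 5971 and 5949 in isolate 2, so that only isolate 1 was far under WT. KLLA0B07909g was at 8.45 and 11.9 in WT, 66.5 and 79.7 in isolate 1, and 36.1 and 34.9 in isolate 2, above WT in both isolates and most in isolate 1. KLLA0C18931g was at 14.5 and 13.8 in WT, 123 and 169.9 in isolate 1, and 263 and 296 in isolate 2, with isolate 2 furthest above WT. The differences were 0.92, -1.02 and 0.95 (adjusted p of 2.66e-09, 1.29e-14 and 3.13e-12, limma). SUR2, the sphingoid base hydroxylase of S. cerevisiae, was at 3582 and 3608 in WT, 941 and 999 in isolate 1, and 1672 and 1666 in isolate 2, under WT in all 4 deletion libraries, with a difference of 0.78. The highly expressed neighbours KLLA0F20988g and KLLA0F21010g each differed by 0.74, the latter with an adjusted p of 0.0766 without isolate 1 replicate 1 (limma). RIM101, an alkaline pH response factor in S. cerevisiae, also differed by 0.74, and KLLA0E00221g and KLLA0F00264g by 0.76 and 0.77.

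The largest difference of all was at KLLA0E16149g, a gene of 165 nt coding length. It was at 4.16 and 8.0 FPKM in WT, 9.84 and 13.7 in isolate 1, and 4.21 and 3.94 in isolate 2, where isolate 2 overlapped WT. The difference of -1.32 (SE 0.158, adjusted p = 1.3e-13, limma) became -0.88 after removal of the level and length trend. KLLA0D15565g at -1.11, KLLA0D04181g at -1.06, KLLA0A04345g at -1.02, KLLA0F17864g at -0.95 and DUR12, whose symbol is that of the S. cerevisiae urea amidolyase, at -0.94 were also among the 15 lowest. So was NCE103, a carbonic anhydrase in S. cerevisiae, at 234 and 119 in isolate 1 and 99.3 and 82.3 in isolate 2. Its libraries in isolate 1 stood wide apart, and its adjusted p was 6.74e-11 with all 4 libraries, 0.0636 without isolate 1 replicate 1 and 0.0647 without isolate 2 replicate 2 (limma). KLLA0B12606g, the highest difference at 1.05, rested on 0.89 and 1.32 FPKM in isolate 1 and 2.77 and 3.97 in isolate 2, and had an adjusted p of 0.0731 without isolate 1 replicate 1 (limma). The ranking ended closely. MPP6 was the last of the 15 lowest at -0.8625, with KLLA0F07073g next at -0.8574, and KLLA0F20988g was the last of the 15 highest at 0.7388, with KLLA0F15037g next at 0.7382.

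**Figure D4:**
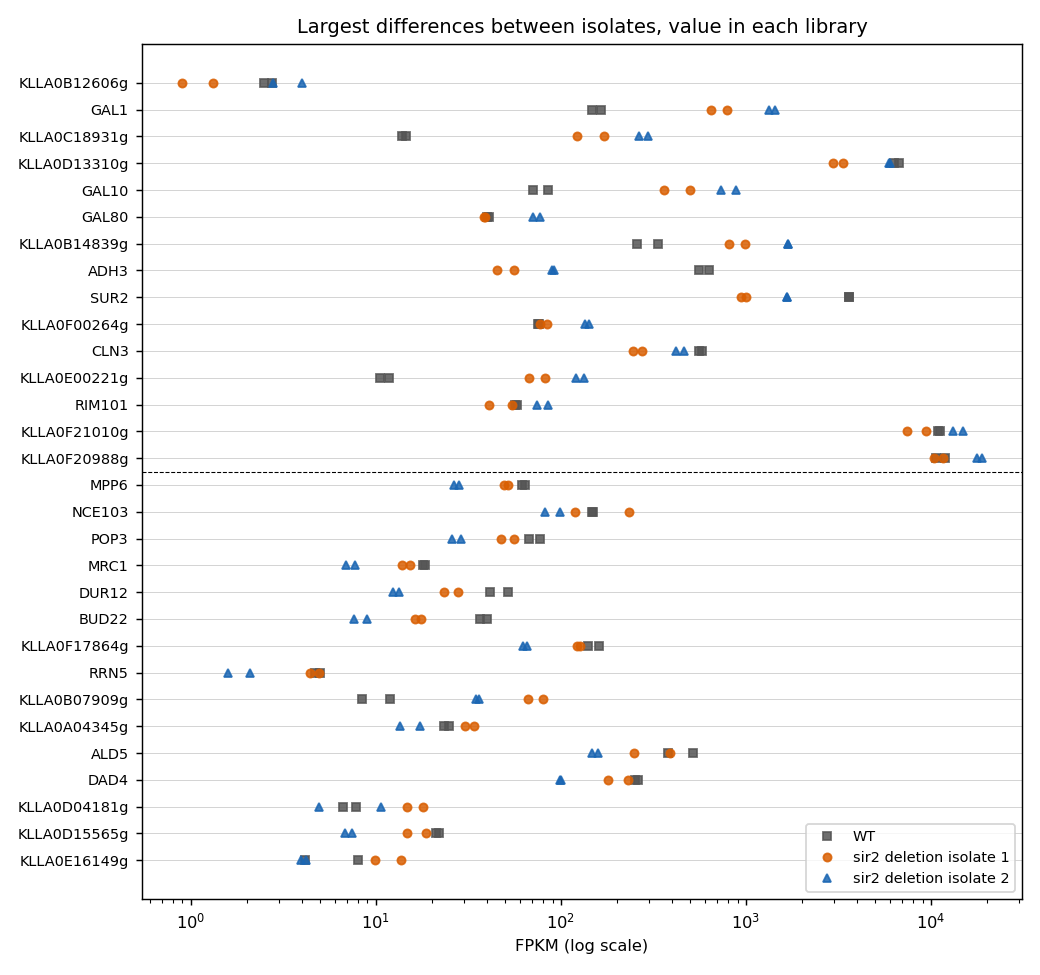
FPKM in each of the 6 libraries (x axis, log scale) for the 15 called genes with the largest difference in each direction (rows, higher in isolate 2 above the dashed line), with squares for WT, circles for isolate 1 and triangles for isolate 2. At GAL80 isolate 1 sits just under WT, at KLLA0D13310g isolate 2 sits close to WT, and at GAL1 and BUD22 the isolates lie in order on one side of it.

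Set against WT, isolate 2 was more often the more changed of the pair. Among the 766 called genes isolate 2 lay further from WT on the same side at 489 (63.8%), nearer to WT at 123 (16.1%), and on the other side of it at 154 (20.1%). Over all tested genes these shares were 55.9%, 33.1% and 11%. At 331 of the 464 genes called lower, WT was above both isolates, and at 158 of the 302 called higher it was under both. Both isolates' values enter the change from WT and the isolate difference alike, so these shares are a description. After cyclic loess isolate 2 was further from WT at 376 of 629 called genes and nearer at 130, with WT between at 123. After removal of the level and length trend these counts were 351, 129 and 113 of 593. The counts also depended on which library was left out, and stayed closest to the full fit without isolate 1 replicate 2. Leaving out isolate 1 replicate 1, isolate 2 replicate 2 or isolate 2 replicate 1 gave 203, 171 or 302 genes further from WT. In the same order, those for nearer to WT were 49, 46 and 52, and those for WT between the isolates were 55, 47 and 99.

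The share of genes called in the direction of the change from WT rose with the size of that change. Among 309 genes whose mean over the isolates was 1 or more below WT, isolate 2 was called lower at 133 (43.0%) and higher at 10 (3.24%), with a median difference of -0.277. Among 181 genes 2 or more above WT it was called higher at 33 (18.2%) and lower at 7 (3.87%), with a median of 0.104. For genes 1 to 2 above WT the median was 0.114. Between 0 and 0.5 above WT the counts were 75 higher and 52 lower of 1294. At 70 of the 154 genes with WT between the isolates, both libraries of one isolate lay above both WT libraries and both of the other below, with isolate 2 above at 37 and below at 33.

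**Figure D5:**
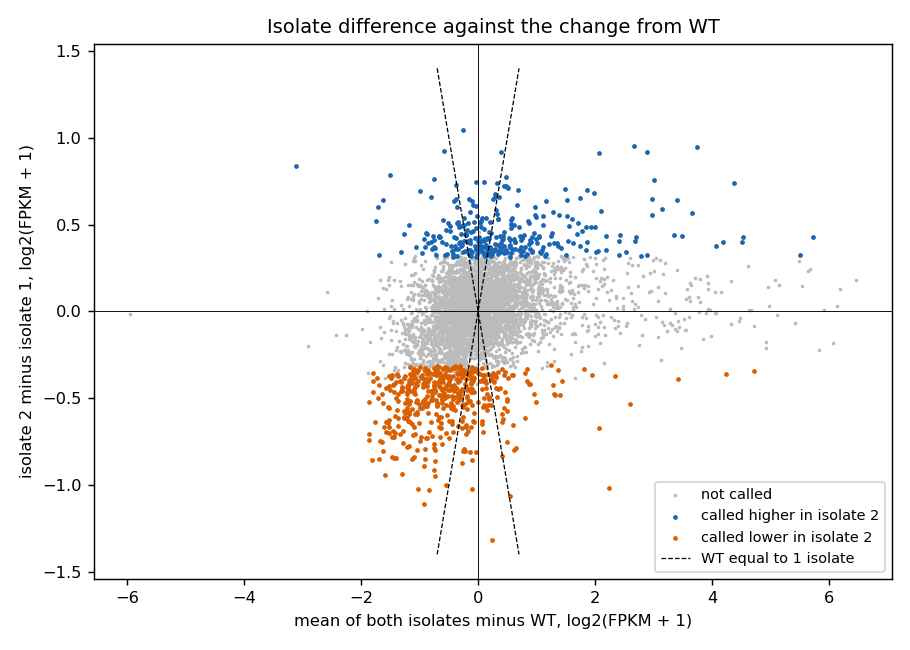
Isolate 2 minus isolate 1 (y axis) against the mean of both isolates minus WT (x axis), both in log2(FPKM + 1), for 5021 tested genes, with genes called higher in blue and called lower in orange; between the dashed lines WT lies between the isolates. Most genes called lower, 331 of 464, lie on the left, below WT in both isolates, and 158 of 302 called higher lie on the right.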

How the data were processed

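Total RNA from each strain was sequenced from non-stranded TruSeq libraries as 50 bp single-end reads, per the labels' protocols, so a gene and an overlapping antisense transcript cannot be told apart. The FPKM values were deposited by the authors, 1 value per gene and library, and TopHat2 2.0.10 and Cuffnorm 2.2.1 are named in the submitters' processing notes. The sources used here do not give the genome build or the scaling. Read depth is unknown, and no count test was possible. FPKM summed to 1542502 to 1803539 per library, and 48 to 56 genes were at 0. Gene symbols came from a RefSeq table of assembly ASM251v1, which matched all 5076 IDs and gave 3959 symbols. SIR2 has no symbol there, and its ID is from general knowledge.

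The 4 isolate libraries were compared with limma 3.58.1 in R 4.3.3 on log2(FPKM + 1), for genes whose 3 strain means averaged 1 FPKM or more, with an intensity trend in the variance and Benjamini-Hochberg adjustment over all tested genes at 0.05. A fold change on this scale understates that of low genes. The residual degrees of freedom were 2 and the prior degrees of freedom were estimated as infinite, so the standard error followed the expression level and not the spread of the single gene. The script was tested on simulated data. The alternatives were a fit of all 6 libraries, another pseudocount, other filters, quantile and median scaling, no intensity trend, a replicate block, each library left out, and, added after the data were seen, cyclic loess and removal of a spline trend in level and coding length.

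Named genes are the 15 largest called differences in each direction with libraries that do not overlap, the 3 largest for each place of WT, the 2 highest and lowest of each list, the longest runs and SIR2. Other genes named as examples were chosen after their values were seen. The comparison, the lists and the rules were chosen with earlier results of these data known, and the lists are described by counts and medians without a test.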

Additional observations from a re-analysis of the deposited data

Results flagged for a closer look

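Some called genes stood out because both libraries of one isolate lay above both WT libraries and both of the other isolate lay below them. The difference between the 2 changes from WT is the isolate difference tested with limma. Isolate 2 was the higher one at KLLA0B12606g, with a difference of 1.05, and at GAL80, with 0.917. At GAL80 isolate 1 was only just under WT, and KLLA0B12606g rested on low FPKM values. A difference of either isolate from WT was not tested. Isolate 1 was the higher one at KLLA0A04345g (-1.02), at GIC2, a Cdc42 effector in S. cerevisiae (-0.857), at SMC1 (-0.81) and at ORC6, a subunit of the origin recognition complex (-0.81). GIC2 was at 66.8 and 67.9 FPKM in WT, 79.6 and 89.8 in isolate 1, and 40.8 and 52.4 in isolate 2. ORC6 was near the low end of expression, at 4.72 and 4.48 in WT, 6.21 and 6.27 in isolate 1, and 3.63 and 2.68 in isolate 2.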

How the results depend on the processing

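No called gene that is named reversed its direction under any setting run, but the balance of higher and lower calls turned in some lists. For ribosomal proteins, 4 higher and 1 lower became 0 and 2 under quantile scaling, and for the respiratory chain 2 and 0 became 0 and 6. Genes called lower fell from 464 to 288 under quantile scaling and to 307 after removal of the level and length trend. Those lower at least 2-fold went from 8 to 4 under quantile scaling, 4 after cyclic loess and 2 after removal of the level and length trend, and the 1 gene at least 2-fold higher was lost (0) at a filter of 10 FPKM. Isolate 2 was further from WT at 316 called genes under quantile scaling. The share of calls that were higher was 39.4%, 45.5% after cyclic loess, 48.2% after removal of the level and length trend and 46.2% under quantile scaling.

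With 1 library left out, an isolate has a single library that is assumed to vary like the other pair. The ranges were 68 to 308 genes higher, 196 to 357 lower, 0 to 6 at least 2-fold higher, 6 to 10 at least 2-fold lower, 171 to 379 further from WT, 46 to 122 nearer, 47 to 164 with WT between, and 24 to 30 lists with a median above 0 (27 with all libraries). The span of chromosome medians, 0.04, was 0.0255 after removal of the level and length trend and 0.0218 to 0.0418 with 1 library left out. Of the 151 called genes that were named, 58 were called in all 4 such fits, and of all 766 calls 159 held under every setting.

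The replicate numbers pair nothing by design. With the replicate number as a block, 423 genes were higher and 625 lower, 1048 in all, against 766 without it. The technical differences of the isolates (replicate 2 minus 1) correlated at 0.206 across genes. The fit of all 6 libraries called 937 genes, 737 of them shared.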
